A study of Drosophila melanogaster with 20 samples.

Results

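Eiger, the fly tumour necrosis factor ligand, its receptor Wengen, the JNK cascade and the core apoptosis genes were followed in Drosophila SL2 cells given double-stranded RNA (dsRNA) against SPS1. The 10 genes were egr, wgn, hep, bsk, puc, Debcl, Dronc, Drice, Diap1 and rpr, and a probe set was taken as a member where the array annotation gave 1 of these symbols and no other. Probe sets were found for 7 of the 10 genes, 12 of the 18769 probe sets tested: 2 for egr, 3 each for hep and bsk, and 1 each for wgn, puc, Debcl and Dronc. Drice, Diap1 and rpr had no probe set that carried their symbol alone in the annotation used here and were not analysed here. An effector caspase, a caspase inhibitor and an inhibitor antagonist are therefore missing from what follows. Other genes of caspases, inhibitors and antagonists, such as Dcp-1, Diap2 and grim, were counted in further lists below.

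SL2 is a Drosophila line of embryonic origin that resembles blood cells. Cells given SPS1 dsRNA were harvested at day 1 (5 samples), day 3 (2 samples) and day 5 (2 samples), and untreated cells at day 1 (5 samples), day 3 (2 samples) and day 5 (2 samples), for RNA on Affymetrix Drosophila Genome 2.0 arrays. SPS1 encodes selenophosphate synthetase 1, and the design asked which genes it regulates directly or through others. Untreated cells received no dsRNA, so loss of SPS1 and exposure to dsRNA cannot be told apart. No probe set had SPS1 as its only gene symbol, so its knockdown was not measured here.

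Eiger is a membrane-anchored ligand that can be shed, and it signals through the receptors Wengen and Grindelwald to a kinase cascade. In that cascade the kinase Hemipterous (hep) phosphorylates the JNK Basket (bsk), Basket acts on the AP-1 factors Jra and Kayak, and the phosphatase Puckered (puc), itself a transcriptional target of JNK, switches Basket off. JNK signalling is known in flies for wound closure, stress responses and cell death. Death itself runs through the initiator caspase Dronc, which the adaptor Dark activates and IAP proteins hold back, and Debcl is a fly relative of the Bcl-2 family that promotes death when overexpressed.

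All levels below are log2 values from robust multi-array averaging (RMA), a difference of 1 on this scale being a doubling, and levels are compared within a probe set only. Array medians lay between 4.53 and 4.69. Each day 3 group had a technical array, averaged with biological replicate 2; its 3′ minus 5′ actin signal was 1.04 (SPS1 dsRNA) and 1.25 (untreated), against 0.12 to 0.55 in biological arrays. SPS1 dsRNA replicate 1 of day 5 lay farthest from the other arrays, at a median root mean square difference of 0.369, the others lying between 0.253 and 0.339. The labels do not say whether samples came from separate cultures, so p-values measure the spread between these samples. In the main fit that spread was pooled over all 6 groups, and day 1 gave the most samples to it. In RNA from whole cultures, a change in the cells present and a change in RNA per cell cannot be told apart.

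Of the 12 probe sets, none differed between SPS1 dsRNA and untreated cells at day 1. In SPS1 dsRNA cells 2 were higher at day 3, and 4 differed at day 5, 3 higher and 1 lower. The test was limma over all 18 samples with Benjamini-Hochberg adjustment over all probe sets, and an adjusted p under 0.05 counted as a call. Both egr probe sets made the day 3 calls, and egr, Dronc and Debcl made those of day 5. Over all probe sets limma called 0% at day 1, where 1.55% had an unadjusted p under 0.05 and where Dronc alone of the members did, 0.176% at day 3 (0.0266% higher) and 2.79% at day 5 (1.19% higher, 1.59% lower). With the replicate number as a block, these shares were 0% (5.33% unadjusted), 1.25% and 12.2%, and 0 (2 unadjusted), 2 and 6 members were called. The median log2 difference of the 12 members was -0.0042 at day 1, 0.0516 at day 3 and 0.2005 at day 5, beside 0.0014, 0.0018 and 0.0145 over all probe sets.

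**Figure D1:**
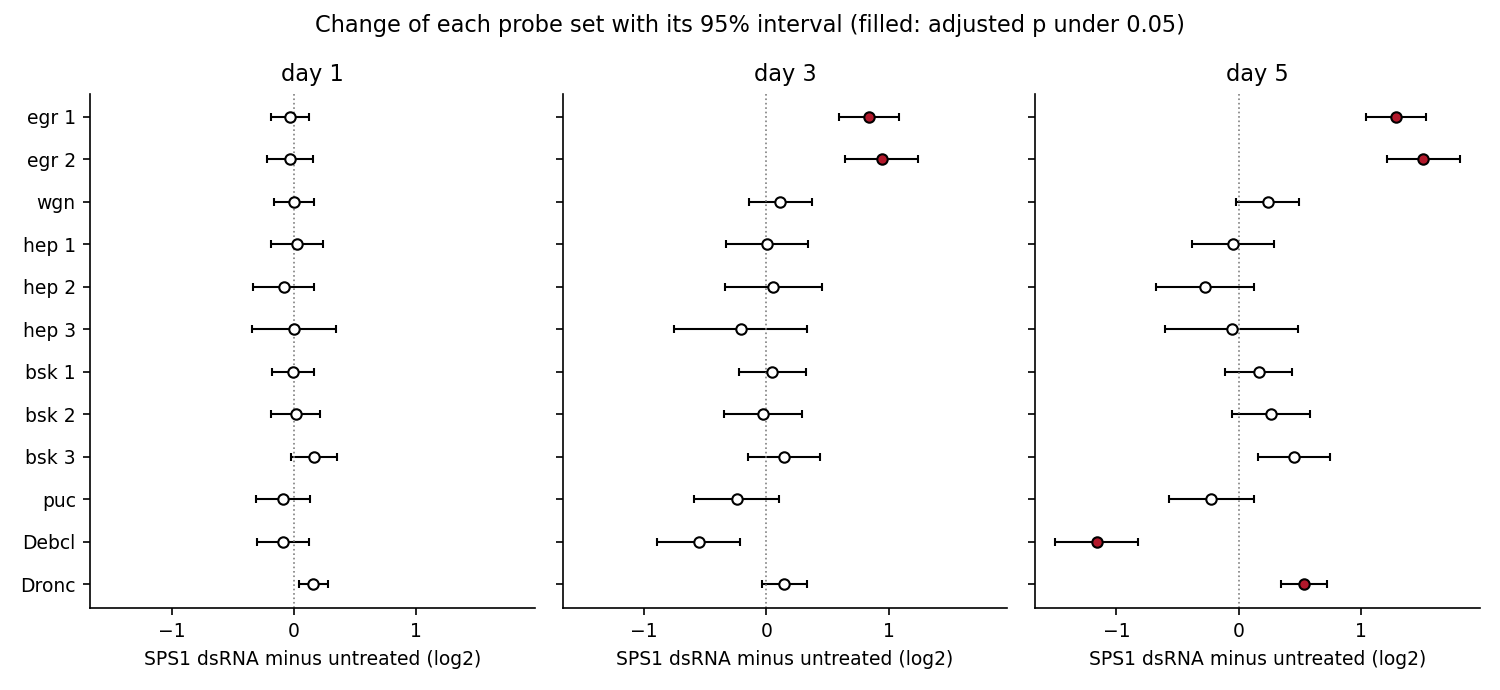
Log2 difference, SPS1 dsRNA minus untreated, of each of the 12 probe sets at days 1, 3 and 5, with its 95% interval from limma. Filled points passed the adjusted p of 0.05: both egr probe sets at day 3, and both egr probe sets, Dronc and Debcl at day 5.

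The ligand gene egr was the only member gene called before day 5. At day 1 egr was not called, at day 3 it was 1.79-fold and 1.92-fold higher in SPS1 dsRNA cells at its 2 probe sets, and at day 5 it was 2.44-fold and 2.84-fold higher. The 2 probe sets measure one gene in the same RNA and are not independent. By p-value they stood in places 5 and 9 of 18769 at day 3 and in places 14 and 15 at day 5.

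At day 1, egr probe set 1 (1639671_at) read 9.82, 9.79, 9.78, 9.82 and 9.95 in SPS1 dsRNA cells, against 9.79, 9.94, 9.88, 9.82 and 9.86 in untreated cells. At day 3 it read 10.10 and 10.17 in SPS1 dsRNA cells, against 9.50 and 9.09 in untreated cells. At day 5 it read 10.42 and 10.63 in SPS1 dsRNA cells, against 9.20 and 9.27 in untreated cells. The groups overlapped fully at day 1 and lay apart on days 3 and 5, with SPS1 dsRNA samples above their own day 1 range and untreated samples below theirs.

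Probe set 2 of egr (1629442_at) read 8.34, 8.42, 8.36, 8.45 and 8.28 in SPS1 dsRNA cells at day 1, against 8.33, 8.59, 8.47, 8.38 and 8.23 in untreated cells. At day 3 the same egr probe set read 8.57 and 8.61 in SPS1 dsRNA cells, against 7.88 and 7.42 in untreated cells. At day 5 it read 9.24 and 9.53 in SPS1 dsRNA cells, against 7.88 and 7.87 in untreated cells. The picture was the same as at probe set 1, with separate groups from day 3 on. The low untreated value at day 3 came from replicate 2, whose technical array read 7.12 and whose biological array read 7.71. In replicate 2 of SPS1 dsRNA the technical array read 8.39 and the biological array 8.83.

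**Figure D2:**
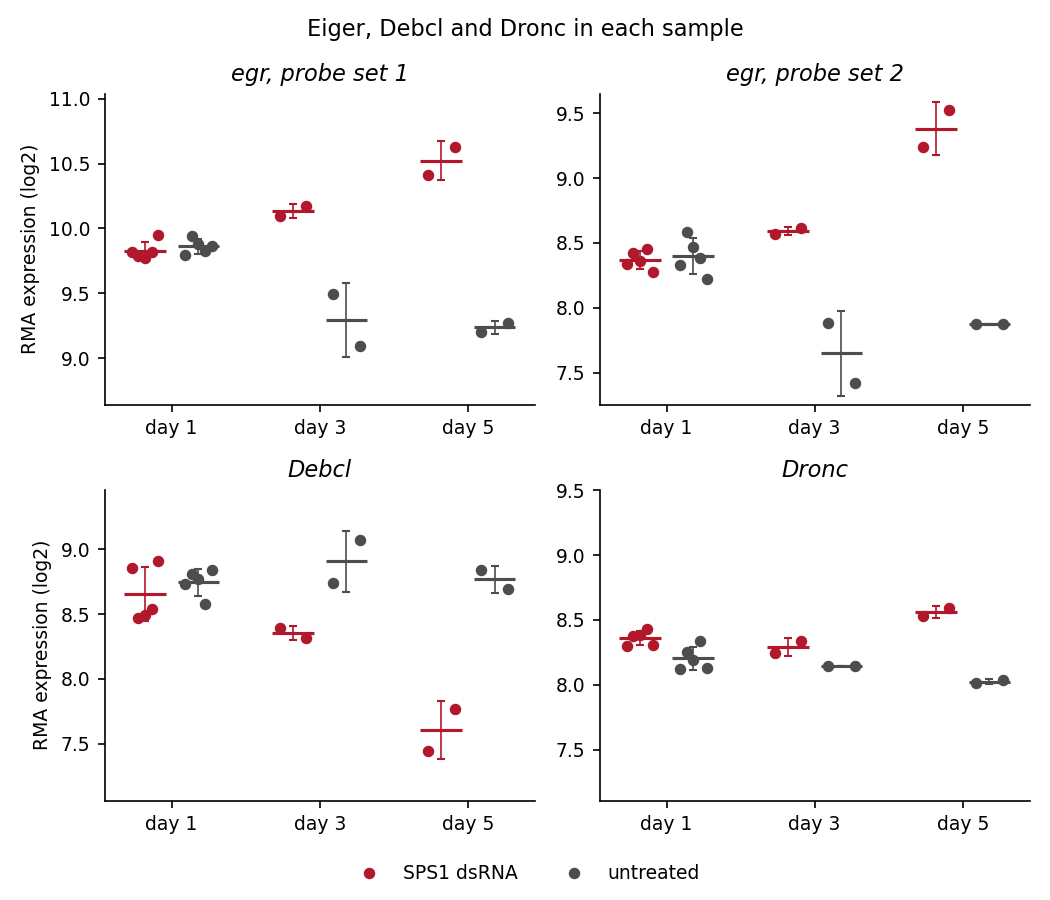
RMA level (log2) of egr at both probe sets, Debcl and Dronc in each sample by day, SPS1 dsRNA left and untreated right of each day, with lines at the mean and bars of 1 SD (5 samples per group at day 1, 2 at days 3 and 5). At day 5 both egr probe sets and Dronc lay higher in both SPS1 dsRNA samples than in both untreated samples, and Debcl lower; all panels span the same log2 range.

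The egr difference was 0.84 ± 0.12 (SE) at probe set 1 and 0.94 ± 0.14 at probe set 2 on day 3 (limma adjusted p = 0.00689 and 0.00852, n = 2 per group). Each SE comes from the spread pooled over all 6 groups, not from the day 3 samples alone. At probe set 1 the untreated SD was 0.29 at day 3 and 0.06 at day 1. The SPS1 dsRNA SD was 0.05 at day 3 and 0.07 at day 1. On day 5 it was 1.29 ± 0.12 and 1.51 ± 0.14 (adjusted p = 7.68e-06 and 1.06e-05). On day 1 it was -0.03 at both probe sets, with a 95% interval of -0.19 to 0.12 at probe set 1 and -0.22 to 0.16 at probe set 2. Fitted from the day 3 samples alone, adjusted p for egr was 1 and 0.89. With 1 sample left out, the probe set 1 call at day 3 was lost without untreated replicate 2 (0.64, adjusted p = 0.064) and without SPS1 dsRNA replicate 2 (0.80, adjusted p = 0.0505). The probe set 2 call was lost without untreated replicate 2 (0.71, adjusted p = 0.11), SPS1 dsRNA replicate 1 (0.96, adjusted p = 0.051) or SPS1 dsRNA replicate 2 (0.92, adjusted p = 0.062). The day 5 calls of egr held in each of the 4 fits that left out 1 day 5 sample (1.18 to 1.39 and 1.37 to 1.65).

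Part of the gap, and at day 3 the larger part at both probe sets, lay in untreated cells, in which egr was lower on later days. At day 3 the untreated level was 9.29 ± 0.29 (SD, n = 2) at probe set 1 and 7.65 ± 0.33 at probe set 2, against 9.86 ± 0.06 and 8.40 ± 0.14 at day 1 (SD, n = 5). The differences were -0.57 (limma adjusted p = 0.035) and -0.75 (adjusted p = 0.0173), the only 2 member calls, beside 0.107% called over all probe sets (0.0266% lower). At day 5 the untreated level was 9.24 ± 0.05 and 7.87 ± 0.00 (SD, n = 2), which gave -0.62 (adjusted p = 0.0123) at probe set 1 and -0.53 (adjusted p = 0.098) at probe set 2, the first being the only member call, beside 0.186% over all probe sets (0.112% lower). These contrasts and the SPS1 dsRNA contrasts of the same day share the untreated samples. The probe set 1 call at day 3 was lost in 6 of the 7 fits that left out 1 sample, and that of probe set 2 in 3 of 7. Without untreated replicate 2 of day 3 the differences of egr were -0.36 and -0.52 (adjusted p = 0.61 and 0.45), and without untreated day 1 replicates singly they were -0.59 to -0.55 at probe set 1 (adjusted p = 0.058 to 0.10). The probe set 2 call was also lost without untreated day 1 replicate 2 (-0.70, adjusted p = 0.054) or replicate 3 (-0.73, adjusted p = 0.060). The egr probe set 1 call at day 5 was lost without untreated replicate 1 (-0.59, adjusted p = 0.32) or replicate 2 of that day (-0.66, adjusted p = 0.097).

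In SPS1 dsRNA cells egr was higher at day 5 than at day 1. At day 5 it was 0.69 above day 1 at probe set 1 (limma adjusted p = 0.000394) and 1.01 above day 1 at probe set 2 (adjusted p = 5.95e-05), where 3.29% of all probe sets were called. At day 3 it was 0.30 and 0.22 above day 1 (adjusted p = 0.29 and 0.74; 0.245% called over all probe sets). So the SPS1 dsRNA time course of egr passed at day 5 and not at day 3, where the untreated time course did; the test of the difference between them follows.

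The SPS1 dsRNA effect on egr itself differed between days. Between day 5 and day 1 it differed by 1.32 at probe set 1 (limma adjusted p = 6.91e-05) and 1.54 at probe set 2 (adjusted p = 8.58e-05). Between day 3 and day 1 the differences were 0.87 (adjusted p = 0.0437; 0.0184 with the replicate block) and 0.97 (adjusted p = 0.0795; 0.0148 with the replicate block). Between day 5 and day 3 they were 0.45 and 0.57, with adjusted p = 0.93 and 0.82 and 95% intervals of 0.10 to 0.79 and 0.14 to 0.99. Between days 5 and 1, 3 of the 12 members passed (4 with the block), beside 1.4% of all probe sets (6.82% with the block). Between days 3 and 1, 1 passed (2 with the block), beside 0.0213% (0.336% with the block). Between days 5 and 3, 0 passed with or without the block, beside 0.0959% (1.2% with the block), and 4 members and 4.17% of all probe sets had an unadjusted limma p under 0.05. The probe set 1 difference between days 3 and 1 was lost in 12 of 14 fits with 1 sample left out, at 0.67 to 0.91 and adjusted p = 0.072 to 0.27; it held without SPS1 dsRNA day 1 replicate 5 and without untreated day 3 replicate 1, and in the second of these probe set 2 also passed (1.20, adjusted p = 0.00917).

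The receptor gene wgn showed no call on any day. At day 5 it read 9.89 and 9.91 in SPS1 dsRNA cells, against 9.62 and 9.70 in untreated cells, a difference of 0.24 (95% interval -0.02 to 0.50; limma adjusted p = 0.47, 0.083 with the replicate block). At day 3 wgn read 9.61 and 9.99 in SPS1 dsRNA cells, against 9.59 and 9.78 in untreated cells, and the groups overlapped. At day 1 the difference of wgn was 0.00 (-0.16 to 0.16), with overlapping groups at 9.74 to 9.95 and 9.69 to 9.92. The interval at day 5 leaves room for wgn to be up to 1.41-fold higher. Grindelwald, the other Eiger receptor, averaged 3.26 in SPS1 dsRNA cells and 3.27 in untreated cells at day 5, below the lower quartile of the arrays, so a difference in grnd was not measurable here.

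Of the JNK cascade, hep was not called at any of its 3 probe sets, bsk was higher in both SPS1 dsRNA samples of day 5 at all 3, and puc was lower in each same-numbered pair of samples, all without a call in the limma fit that had no replicate block. The smallest p-value among them was that of the JNK gene. At day 5 bsk probe set 3 (1634580_at) read 6.17 and 6.09 in SPS1 dsRNA cells, against 5.71 and 5.64 in untreated cells, a difference of 0.45 ± 0.14 (SE; limma adjusted p = 0.117). Probe set 2 of bsk (1626404_a_at) read 10.66 and 10.68 in SPS1 dsRNA cells, against 10.44 and 10.37 in untreated cells, a difference of 0.26 ± 0.15 (adjusted p = 0.54). Probe set 1 (1625533_at) read 11.46 and 11.45 in SPS1 dsRNA cells, against 11.33 and 11.25 in untreated cells, a difference of 0.17 ± 0.13 (adjusted p = 0.71). The groups lay apart at all 3 bsk probe sets, as they did for 35.3% of all probe sets at day 5. These 3 probe sets measure 1 gene in the same RNA and are not independent. With the replicate block, bsk probe sets 2 and 3 passed at day 5 (limma adjusted p = 0.0371 and 0.0154) and probe set 1 did not (0.21). Over all probe sets 12.2% passed with the block. At days 1 and 3 bsk differed by -0.03 to 0.16, with overlapping groups.

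The kinase gene hep gave no call on any day. At day 5 its probe sets 1, 2 and 3 (1626465_a_at, 1634949_at and 1623804_a_at) differed by -0.05, -0.28 and -0.06 (limma adjusted p = 0.96, 0.63 and 0.98). Probe set 3 of hep read 5.38 and 6.05 in SPS1 dsRNA cells, against 5.46 and 6.08 in untreated cells, so replicate 2 was the higher in both. At probe set 2 hep read 6.19 and 6.54 in SPS1 dsRNA cells, against 6.66 and 6.62 in untreated cells. It was the only hep probe set whose groups did not overlap, beside 35.3% of all probe sets. The 95% intervals at day 5 ran from -0.67 to 0.49 over the 3 probe sets, which at probe set 3 held differences from 0.66-fold to 1.40-fold. At days 1 and 3 hep differed by -0.21 to 0.06.

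The JNK target and phosphatase gene puc read 10.29 and 10.54 in SPS1 dsRNA cells at day 5, against 10.44 and 10.84 in untreated cells. At day 3 puc read 10.18 and 10.63 in SPS1 dsRNA cells, against 10.51 and 10.78 in untreated cells. At day 1 it read 10.38, 10.36, 10.62, 10.59 and 10.36 in SPS1 dsRNA cells, against 10.55, 10.51, 10.67, 10.63 and 10.40 in untreated cells. The groups overlapped on each day, yet within each same-numbered pair SPS1 dsRNA was the lower. The differences of puc were -0.09, -0.24 and -0.23 (limma adjusted p = 1, 1 and 0.67; 0.93, 0.24 and 0.092 with the replicate block). At day 5 the 95% interval of puc was -0.57 to 0.12, so that a rise of more than 1.09-fold lay outside it.

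**Figure D3:**
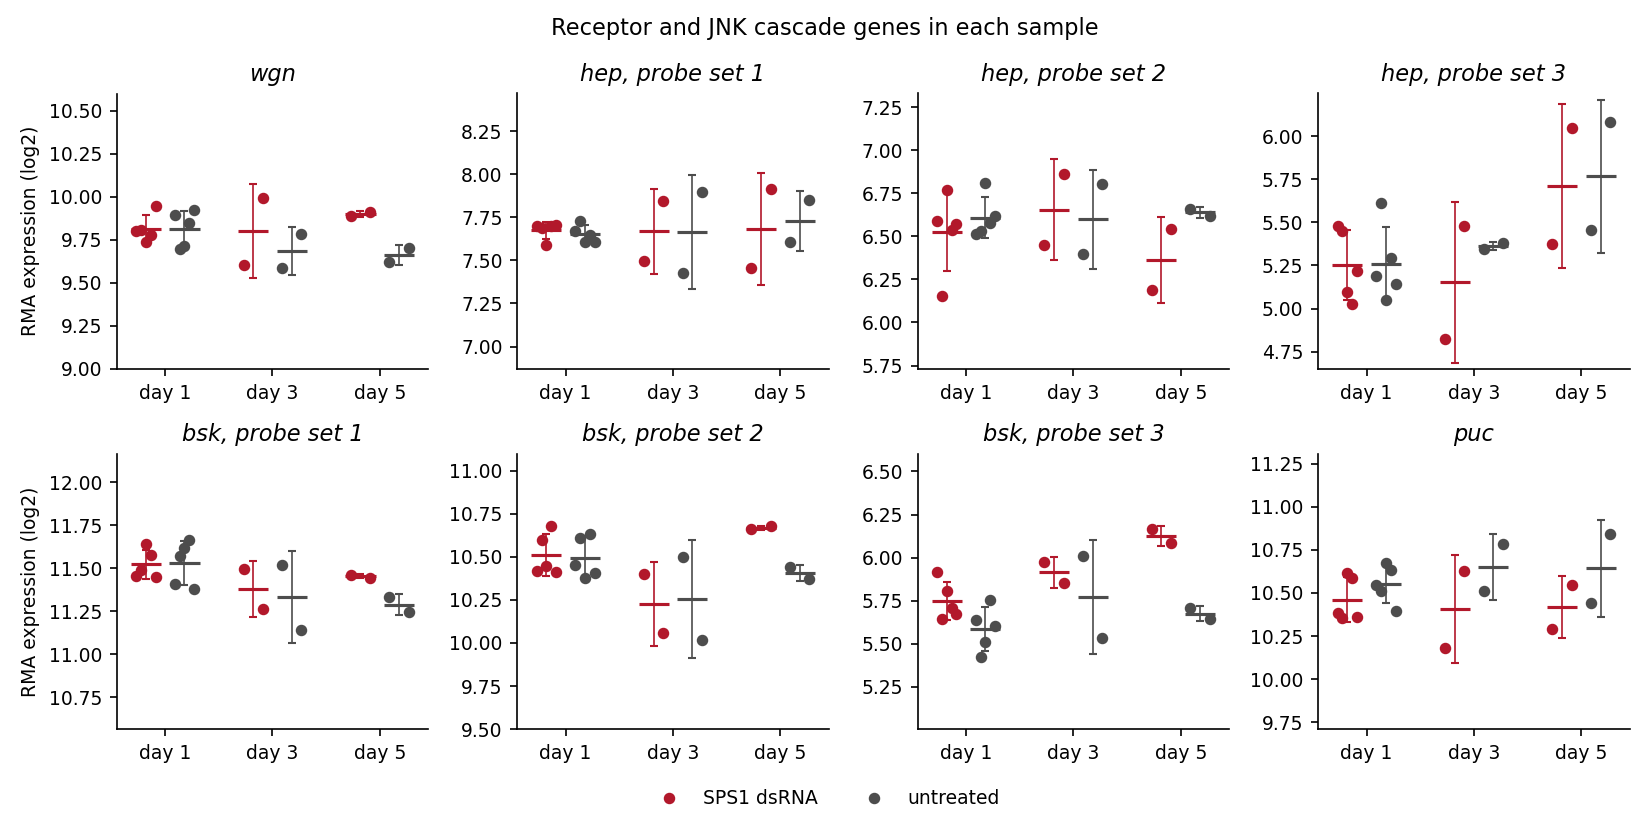
RMA level (log2) of wgn, hep, bsk and puc probe sets in each sample by day, SPS1 dsRNA left and untreated right of each day, with lines at the mean and bars of 1 SD. At day 5 wgn and all 3 bsk probe sets lay higher in both SPS1 dsRNA samples, while the hep and puc samples mostly overlapped. On that day the groups lay apart for 35.3% of all probe sets. All panels span the same log2 range.

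Of the death genes, the initiator caspase gene Dronc was called higher and the Bcl-2 family gene Debcl lower at day 5. Dronc was 1.45-fold higher and Debcl 2.24-fold lower in SPS1 dsRNA cells. By p-value Debcl stood in place 91 and Dronc in place 155 of 18769.

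Dronc (1641607_at) read 8.53 and 8.59 in SPS1 dsRNA cells at day 5, against 8.01 and 8.04 in untreated cells. At day 3 it read 8.24 and 8.34 in SPS1 dsRNA cells, against 8.14 and 8.14 in untreated cells. At day 1 Dronc read 8.30, 8.38, 8.38, 8.43 and 8.31 in SPS1 dsRNA cells, against 8.12, 8.25, 8.19, 8.33 and 8.13 in untreated cells. The groups lay apart at days 3 and 5 and overlapped at day 1 through 1 untreated sample, replicate 4. The differences of Dronc were 0.16 ± 0.06 at day 1 (limma adjusted p = 1, unadjusted p = 0.013), 0.15 ± 0.09 at day 3 (adjusted p = 1) and 0.54 ± 0.09 at day 5 (adjusted p = 0.00184). Its effect at day 5 exceeded that at day 1 by 0.38 (adjusted p = 0.109; 0.018 with the replicate block). The day 5 difference of Dronc included the 0.16 seen at day 1, with the rest split between both arms. Dronc at day 5 was 0.20 above day 1 in SPS1 dsRNA cells (limma adjusted p = 0.21). In untreated cells Dronc at day 5 differed from day 1 by -0.18 (adjusted p = 0.39), and neither shift passed alone. Fitted from day 5 samples alone, Dronc had an adjusted p of 0.23, while leaving out 1 day 5 sample kept the call (0.50 to 0.57).

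Debcl (1629916_at) read 7.45 and 7.77 in SPS1 dsRNA cells at day 5, against 8.84 and 8.69 in untreated cells. At day 3 it read 8.39 and 8.32 in SPS1 dsRNA cells, against 8.74 and 9.07 in untreated cells. At day 1 Debcl read 8.86, 8.47, 8.49, 8.54 and 8.91 in SPS1 dsRNA cells, against 8.73, 8.81, 8.77, 8.58 and 8.84 in untreated cells. The groups overlapped at day 1, where SPS1 dsRNA samples lay both above and below the untreated ones, and lay apart afterwards, with SPS1 dsRNA lower. The difference was -0.09 ± 0.10 at day 1 (limma adjusted p = 1), -0.55 ± 0.16 at day 3 (adjusted p = 0.47; 0.11 with the replicate block) and -1.16 ± 0.16 at day 5 (adjusted p = 0.000359). For Debcl the shift lay in SPS1 dsRNA cells: day 5 differed from day 1 by -1.05 there (adjusted p = 0.000154), and by 0.02 in untreated cells (adjusted p = 0.97). The effect differed between days 5 and 1 by -1.07 (adjusted p = 0.00623), which was -0.997 without untreated day 5 replicate 1 and -0.91 without SPS1 dsRNA day 5 replicate 1 (adjusted p = 0.067 in both). Fitted from day 5 samples alone, Debcl had an adjusted p of 0.068, while leaving out 1 day 5 sample kept the day 5 call (-1.32 to -1.003).

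Groups that did not overlap were common in so few samples. At day 5 they lay apart for 9 of the 12 members, against 35.3% of all probe sets, at day 3 for 4 of 12, against 24.3%, and at day 1 for 0 of 12, against 0.362%. In untreated cells, day 3 lay apart from day 1 for 2 members (10.6% of all probe sets) and day 5 for 4 members (18.5%), always downwards.

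Same-numbered samples shared part of their deviation, so the 9 pairs were also read one by one. Dronc was higher in SPS1 dsRNA in 9 of 9 pairs, by 0.09 to 0.56, and puc was lower in 9 of 9, by -0.33 to -0.04. The puc differences ran from -0.16 to -0.04 at day 1, -0.33 to -0.16 at day 3 and -0.30 to -0.15 at day 5. Over all probe sets 0.645% were higher in each pair and 1.02% lower, and Dronc and puc were singled out after their values were seen. In pairs of days 3 and 5, the egr differences were 0.60 to 1.65 over both probe sets, and those of Debcl were -1.39 to -0.35. These pairs hold the same samples as the tests of days 3 and 5. The share of all probe sets with 1 sign throughout them was not computed. In the 5 day 1 pairs egr was higher in 2 at probe set 1 and 3 at probe set 2, and Debcl was higher in 2.

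**Figure D4:**
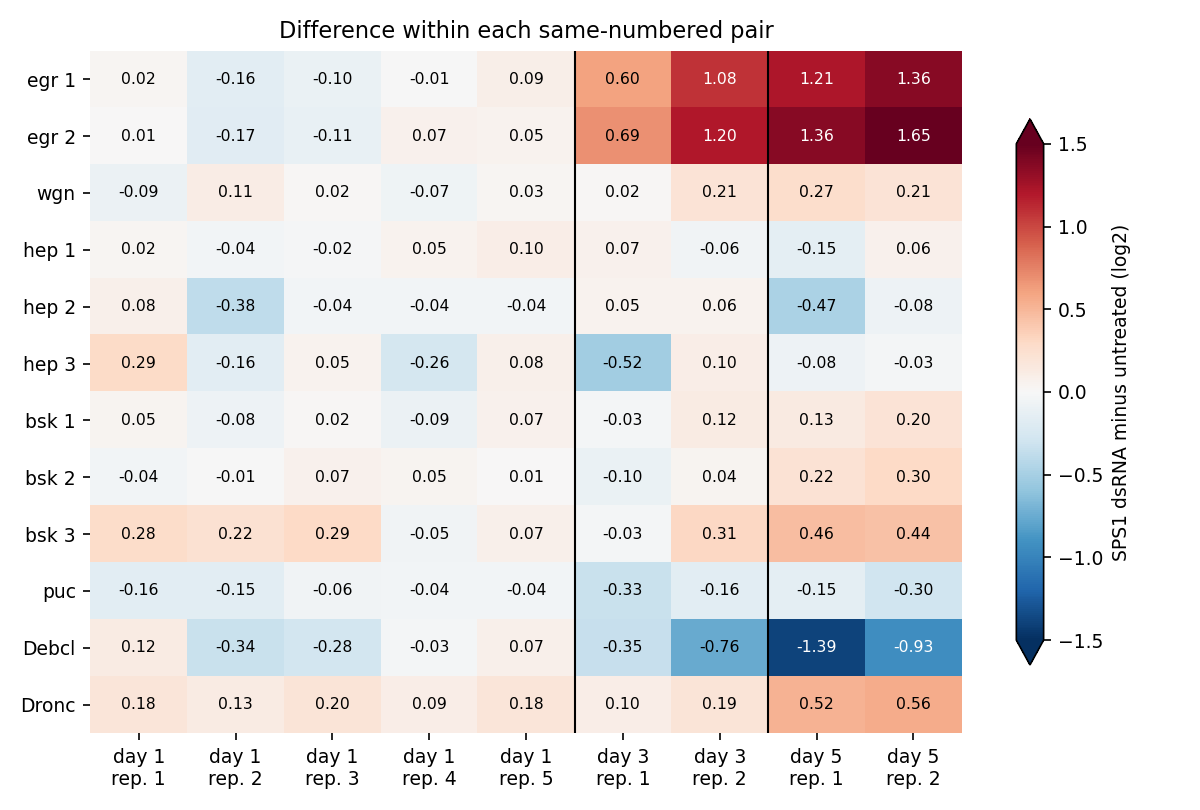
Log2 difference, SPS1 dsRNA minus untreated, within each same-numbered pair of samples, for the 12 probe sets (rows) and 9 pairs (columns), red for higher and blue for lower in SPS1 dsRNA. Dronc was above 0 and puc below 0 in 9 of 9 pairs, as were 0.645% (above) and 1.02% (below) of all probe sets. In the pairs of days 3 and 5 the egr differences were 0.60 to 1.65 and those of Debcl -1.39 to -0.35.

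Other genes of the pathway were read from 7 further lists. Of 51 further genes in these lists, 42 had a probe set, 48 in all. No probe set carried 1 of these symbols alone: Tak1 and Rac1 (upstream of JNK), or Mmp1, upd3 and Thor (reported targets of JNK). The same held for hid and Xrp1 (IAP antagonists and pro-death regulators), Decay (caspases) and DNaseII (nucleases). The counts below do not cover these genes. At day 5 limma called 1 of the 48, higher, beside 2.79% of all probe sets, and at days 1 and 3 it called 0, beside 0% and 0.176% (1 at day 1, 2 at day 3 and 8 at day 5 before adjustment, where 1.55%, 3.37% and 12.6% of all probe sets had p under 0.05). With the replicate block 4 were higher and 5 lower at day 5, beside 12.2% of all probe sets, and 1 was lower at day 3, beside 1.25%. The median difference over the 48 was 0.02, -0.04 and -0.03 at days 1, 3 and 5, beside 0.0014, 0.0018 and 0.0145 over all probe sets. The 1 call was drpr, the receptor Draper by which blood cells and glia engulf dying cells, at 9.78 in SPS1 dsRNA cells and 8.57 in untreated cells at day 5 (1.21 ± 0.31, adjusted p = 0.0475; 1.83e-05 with the replicate block). Leaving out 1 day 5 sample left 0 or 1 calls in these lists, with 0 in the absence of untreated replicate 1, untreated replicate 2 or SPS1 dsRNA replicate 1. NimC4, a phagocytic receptor known also as Simu, differed by -0.37 (adjusted p = 0.56).

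Upstream of JNK, 0 of 11 probe sets of 10 genes passed at day 5, beside 2.79% of all probe sets, with differences from -0.33 to 0.57. Traf4, an adaptor between receptor and kinases, averaged 8.89 in SPS1 dsRNA cells and 8.32 in untreated cells (0.57, limma adjusted p = 0.36). The second Traf4 probe set differed by -0.03, but it averaged 3.74 over all samples, near the lower quartile of the arrays, so no change could be read there. The kinase gene msn differed by -0.19 (adjusted p = 0.76). Among JNK-dependent transcription factors and reported targets, 0 of 10 probe sets passed, beside the same 2.79%, with a median of -0.23. Of these, Atf3 averaged 3.84 over all samples, where the lower quartile of an array reached 3.86, so no change could be read there. NLaz and Ilp8 averaged 4.08 and 4.31, below the lowest array median of 4.53. The smallest p-values were those of raw and Jra. The gene raw, a repressor of JNK signalling in the embryo, averaged 9.53 in SPS1 dsRNA cells and 10.08 in untreated cells (-0.56, adjusted p = 0.062; 0.0065 with the replicate block). Jra, the fly Jun, differed by -0.34 (adjusted p = 0.13; 0.0224 with the block). At day 3 raw differed by -0.62 (adjusted p = 0.20; 0.0182 with the block).

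Among the death genes outside the members, 0 of 7 probe sets of IAP antagonists and pro-death regulators, 0 of 3 of IAPs, 0 of 6 of caspases and the apoptosome and 0 of 7 of nucleases and substrates passed at day 5. Over all probe sets 2.79% were called, so lists this small would often hold 0 calls. Among those counted, 1 p53 probe set, Damm, Drep2 and both Drep3 probe sets averaged 2.99 to 3.83 over all samples. The lower quartile of an array reached 3.86, and no change could be read at these levels. Dark, the fly Apaf-1 that activates Dronc, differed by -0.44 and -0.29 at its 2 probe sets (limma adjusted p = 0.15 and 0.59), the opposite sign to Dronc; with the replicate block the first passed (0.00995). The other genes named in these lists did not pass either. Of them p53 differed by 0.26 (limma adjusted p = 0.21, and 0.0456 with the block). Buffy, the second fly Bcl-2 family gene, differed by 0.16, Diap2 by 0.19, Det by -0.15 and Acn by -0.20 at 1 of 2 probe sets (adjusted p = 0.62 to 0.75 for these 4). The second Acn probe set differed by -0.09 (adjusted p = 0.85). Buffy averaged 4.05 over all samples, below the lowest array median of 4.53. Drep1, which encodes the fly counterpart of the inhibitor of caspase-activated nuclease, differed by -0.71 (adjusted p = 0.49; 0.0395 with the block). The IAP antagonist genes grim and skl averaged 2.72 and 3.12 over all samples, below the lower quartile of the arrays, and no change in them could be read. Named after their values were seen, the remaining genes that passed with the block only were scaf (0.76), ced-6 (0.31) and kay (-0.58 at 1 of 2 probe sets).

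**Figure D5:**
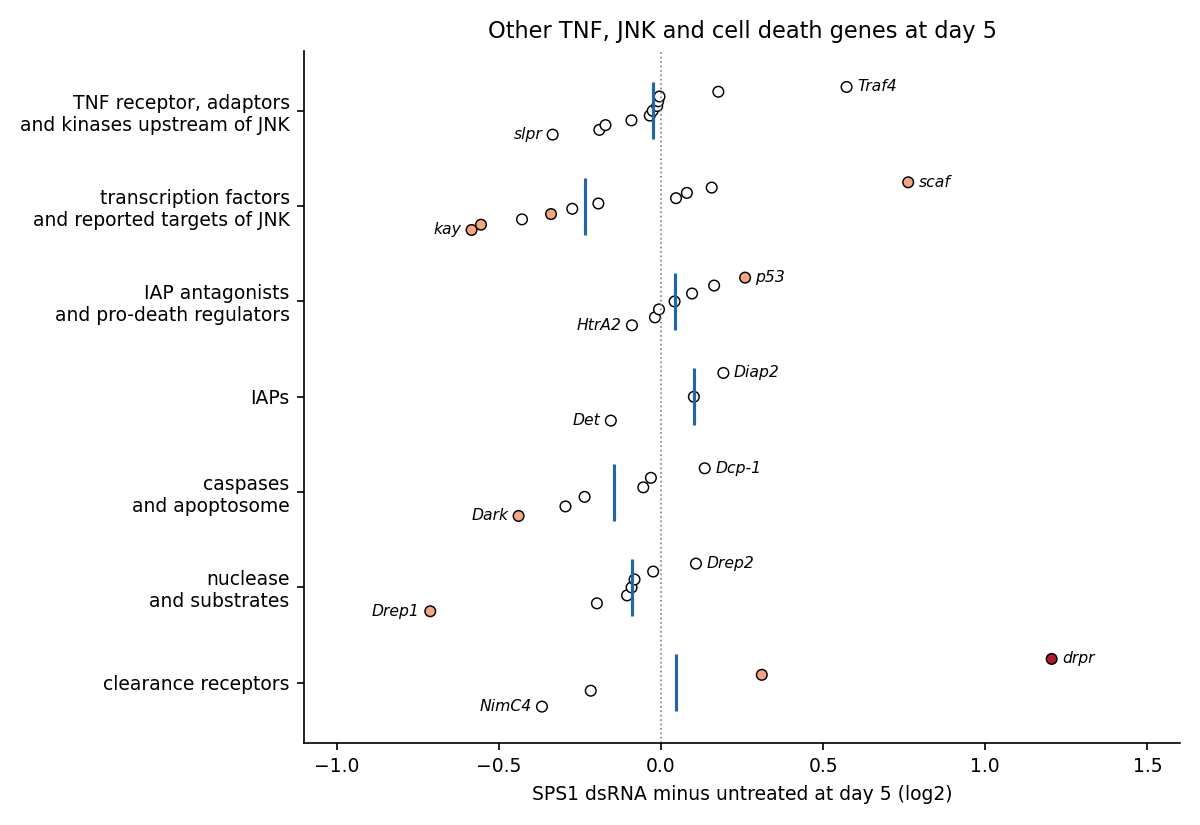
Log2 difference at day 5, SPS1 dsRNA minus untreated, of the 48 probe sets of 7 further lists of the TNF, JNK and cell death pathways, with a blue line at each list's median. The dark red point (drpr) passed limma's adjusted p of 0.05, light red points passed with the replicate block only, and open points passed neither; the highest and lowest point of each list are named.

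The genes whose pattern over the 6 group means lay closest to egr probe set 1 were CG6126, gas, Oatp74D, CG3726 and Hml. Likeness was the root mean square difference of group means, each probe set centred on its own mean, over the 6 groups. It was 0.118, 0.150, 0.163, 0.163 and 0.168 for these genes, 0.157 for the second egr probe set, and 0.552 at the median of 1767 candidates. The 6 groups include SPS1 dsRNA and untreated samples of days 3 and 5. The differences and calls below therefore follow from the choice of genes and are no separate support. At day 5, SPS1 dsRNA minus untreated was 1.21 for CG6126 (limma adjusted p = 0.0045), 1.71 for gas (adjusted p = 2.02e-05) and 0.97 for CG3726 (adjusted p = 0.00647), all called. It was 1.03 for Oatp74D, an organic anion transporter, and 0.93 for Hml, the clotting protein Hemolectin of blood cells (adjusted p = 0.29 and 0.31; 3.79e-06 and 0.00757 with the replicate block). At day 3 these 5 genes differed by 0.43 to 0.77 and none was called, while with the block all but Hml passed (adjusted p = 0.0038 to 0.025).

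Hml is also 1 of 10 plasmatocyte markers, the blood cell type that SL2 cells resemble. Their mean level over the 10 genes was 5.79 to 6.17 in SPS1 dsRNA samples and 5.20 to 5.27 in untreated samples at day 5, 5.36 to 5.90 and 5.19 to 5.60 at day 3, and 5.18 to 5.49 and 5.15 to 5.51 at day 1. At day 5, 2 of 11 plasmatocyte probe sets were called, both higher, for eater (3.28) and 1 of 2 Pxn probe sets (2.35), beside 2.79% of all probe sets. With the replicate block 4 of 11 passed, Hml and Col4a1 being the others, beside 12.2%. The remaining 7 differed by -0.39 (Ppn) to 0.40 (NimC1). Among them the second Pxn probe set differed by -0.02, at an average of 3.37 over all samples, below the lower quartile of the arrays. Between 6 and 8 of the 10 genes lay above the array median in each group, He and Sr-CI below it. The part of these markers in the egr, Dronc and Debcl changes was not tested. For these levels each marker gene was read at its brightest probe set. For the neuron gene brp that was 1 of 4 probe sets, the others averaging 3.23 to 3.83 over all samples. Of the other cell types, 0 of 2 measured muscle genes (5 listed) lay above the array median. Above it lay 3 of 3 measured neuron genes (5 listed), 2 of 3 measured fat body genes (4 listed) and 3 of 5 crystal cell and lamellocyte genes. None of their probe sets was called on any day; with the replicate block PPO3, a lamellocyte prophenoloxidase, passed at day 3 (-0.59, adjusted p = 0.0208) and day 5 (-0.99, adjusted p = 0.000109).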

How the data were processed

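RNA of 18 samples (20 arrays) was measured on Affymetrix Drosophila Genome 2.0 arrays. The authors deposited log2 values, and the submitters' processing notes name RMA as the method; its version, the probe annotation and the genome build were not given in the sources used here, so no coordinates are printed. Of 18952 probe sets, 183 controls were left out and 18769 tested: 13647 had 1 gene symbol, 402 several and 4720 none in the platform annotation, and 13544 matched RefSeq genes (Release 6 plus ISO1 MT) by Entrez identifier. CYLD, eIF3m and ced-6 were matched to list names through synonyms. Groups came from titles, because for SPS1 dsRNA samples of day 5 the source label states that none was given, whereas title and description name the dsRNA. The number of arrays limits the precision, and RMA understates changes of weakly expressed genes.

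Each technical array of day 3 was averaged with replicate 2 of the same treatment. All 6 groups entered 1 limma 3.58.1 fit under R 4.3.3 (12 residual and 4.26 prior degrees of freedom) with Benjamini-Hochberg adjustment over all probe sets tested; each adjusted p is from limma. The script was tested on simulated data. Same-numbered samples deviated together (r from 0.689 to 0.838 in the 5 day 1 pairs, 0.782 at day 3 and 0.712 at day 5, over probe sets with mean log2 above 6), so limma was also fitted with a block for each day and number (the replicate block, 6 residual degrees of freedom), whose values stand beside calls it changes. The pairing comes from the data alone; no label explains the numbers. SPS1 dsRNA time contrasts were added after the values were seen.

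The members and lists were chosen with earlier results of these data known, so no list gives independent support. Named were every member probe set, the list members called on any day or, in lists with fewer than 3 such, the 2 with the smallest p at day 5, and the 5 genes with the smallest root mean square difference from egr among probe sets whose group means spanned at least 0.5. Alternatives were array medians subtracted, cyclic loess, technical arrays left out or averaged with replicate 1, fits from the days compared only, the brighter probe sets only, the replicate block and each sample left out.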

Additional observations from a re-analysis of the deposited data

Results flagged for a closer look

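In 2 of the 24 groups of 5 day 1 samples tested for an outlying value, 1 SPS1 dsRNA sample stood apart, where chance flags about 1 in 20 groups. For egr probe set 1 it was SPS1 dsRNA replicate 5 at 9.949, the other 4 lying between 9.775 and 9.816, and for hep probe set 1 it was SPS1 dsRNA replicate 3 at 7.587, the other 4 lying between 7.687 and 7.704.

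The SPS1 dsRNA effect differed between days for 2 member genes in limma. For egr probe set 1 the effect at day 3 exceeded that at day 1 by 0.8723 (adjusted p = 0.0437), a call that held in 2 of 14 fits with 1 sample left out. For egr the effect at day 5 exceeded that at day 1 by 1.3183 at probe set 1 (adjusted p = 6.91e-05) and 1.5386 at probe set 2 (adjusted p = 8.58e-05), which held in 14 of 14. For Debcl the effect at day 5 differed from that at day 1 by -1.0711 (adjusted p = 0.00623), which held in 12 of 14.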

How the results depend on the processing

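The 4 day 5 calls (egr at both probe sets, Dronc, Debcl) kept their direction under each alternative. Fitted from the days compared, those of Dronc and Debcl were lost and day 5 gave 2 calls, day 3 gave 0, untreated day 5 against day 1 gave 2 and the wider lists 0, a fit that rests on fewer samples. With each array's median subtracted, untreated day 3 against day 1 gave 1 call, untreated day 5 against day 1 gave 0 and the difference between days 3 and 1 gave 0; egr probe set 1 then had adjusted p = 0.10, 0.068 and 0.149. With the replicate block the difference between days 3 and 1 gave 2 calls and the wider lists 9; with technical arrays left out that difference gave 2; with them averaged with replicate 1 it gave 2, untreated day 5 against day 1 gave 2 and the wider lists 2. Over the brighter probe sets the wider lists gave 2. With technical arrays averaged with replicate 1, bsk probe set 3 also passed at day 5 (adjusted p = 0.0323). The causes were not tested. The share of all probe sets called is given here for the block only. Under the other settings, a loss or gain of member calls cannot be told apart from one over all probe sets. The block gave 1.25% called in place of 0.176% over all probe sets at day 3 and 12.2% in place of 2.79% at day 5; it changed no member call other than those printed beside the results, and it could not be fitted for contrasts between days within 1 treatment, since each block lies within 1 day.

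With 1 sample left out, member calls ranged from 0 to 2 at day 3, 0 to 2 for untreated day 3 against day 1, 0 to 1 for untreated day 5 against day 1, 0 to 2 for the difference between days 3 and 1, and 0 to 1 in the wider lists. Signs turned in some of these fits, none of them for a call. For SPS1 dsRNA against untreated at day 1, egr probe set 2 ranged from -0.0739 to 0.0166, wgn from -0.0329 to 0.0273, hep probe set 2 from -0.1469 to 0.0081 and probe set 3 from -0.0583 to 0.087, and bsk probe set 1 from -0.0432 to 0.0275 and probe set 2 from -0.0278 to 0.0483. At day 3, wgn ranged from -0.0805 to 0.307, hep from -0.2295 to 0.2415, -0.1497 to 0.2618 and -0.5395 to 0.1195 at probe sets 1, 2 and 3, and bsk from -0.1425 to 0.237, -0.272 to 0.213 and -0.0933 to 0.3777. At day 5, hep probe set 1 ranged from -0.275 to 0.183 and probe set 3 from -0.3915 to 0.2805. In untreated cells at day 3 against day 1, hep probe sets 1 and 2 ranged from -0.2238 to 0.2472 and -0.2124 to 0.1951, bsk probe sets 2 and 3 from -0.4806 to 0.0044 and -0.0492 to 0.4218, puc from -0.037 to 0.233 and Debcl from -0.0028 to 0.3267. At day 5 against day 1, hep probe set 1 ranged from -0.0478 to 0.2002, puc from -0.107 to 0.291 and Debcl from -0.0518 to 0.0962. The Dronc difference between days 3 and 1 ranged from -0.0557 to 0.0403.

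Under other settings signs also turned for values near 0 without a call. For SPS1 dsRNA against untreated, wgn at day 1 was -0.0002 (median subtracted) and -0.0004 (cyclic loess), hep probe set 1 at day 3 was -0.01 (median subtracted), -0.014 (technical arrays left out) and -0.0345 (averaged with replicate 1), and hep probe set 1 at day 5 was 0.0346 (cyclic loess). For untreated cells, hep probe set 2 was 0.0266 and 0.1109 at day 3 against day 1 (technical arrays left out, averaged with replicate 1) and -0.0086 at day 5 (cyclic loess), and Debcl at day 5 was -0.0318 (cyclic loess). The Dronc difference between days 3 and 1 was 0.03 (cyclic loess). Scaling moved the median of all probe sets by at most -0.067.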
